A study of Bos taurus with 16 samples.

Results

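Proteoglycans and secreted matrix proteins of fibroblasts were followed in the prefrontal cortex (PFC) of the bull. The members are DCN, LUM, OGN, FBLN1, MGP, ISLR, ITIH2 and SCARA5, 8 symbols in all. They were chosen by their expression difference between Lidia and Wagyu in these same animals, since they come from the published list of genes that differed between the breeds. Each symbol was paired with the gene whose chromosome, start and end were identical to its entry. This paired 7 of the 8 symbols with 1 gene each out of 27607 genes measured, and it left OGN unpaired because its entry spans a locus that holds 8 genes.

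Decorin (DCN), lumican (LUM) and osteoglycin (OGN) are small leucine-rich proteoglycans, short secreted proteins whose leucine-rich repeats bind collagen and set the width and spacing of its fibrils. Fibulin-1 (FBLN1) is a glycoprotein of elastic fibres and basement membranes, matrix Gla protein (MGP) is a vitamin K-dependent inhibitor of calcification, and ITIH2 is a heavy chain of the inter-alpha-trypsin inhibitor family, which is transferred onto hyaluronan. ISLR is a leucine-rich repeat protein of mesenchymal stromal cells, and SCARA5 is a class A scavenger receptor that takes up ferritin. In brain, fibrillar matrix of this kind is made mainly by the fibroblasts of the meninges and of the perivascular spaces, which are few beside neurons and glia.

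The samples came from 8 Lidia bulls, labelled aggressive, and 8 Wagyu bulls, labelled non-aggressive, with 1 library per animal. The Lidia bulls came from the farms La Quinta (n = 4) and Montealto (n = 4), in which they are numbered here from 1 to 4 in the order of their animal numbers, and all Wagyu bulls from a farm of their own. All 16 were non-castrated males of 3 years, apart from Montealto 4, which was 4 years old. The Lidia PFC was collected at the bullring after a corrida and Wagyu PFC at a slaughterhouse, so breed, farm, handling and place of collection cannot be told apart.

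The deposited values are FPKM, fragments per kilobase of transcript scaled to the fragments mapped, and were summed over the transcripts of a gene and divided by a size factor for each animal (median of ratios, from 15998 genes that no animal lists at 0). The coverage in the same files corresponds to 7.67 M to 37.0 M fragments per animal, M being 10 to the power 6. Wagyu 5 and La Quinta 4 stood apart, with size factors of 2.21 and 1.78 against 0.617 to 1.13 in the other animals, and with the fewest fragments, 7.67 M and 13.7 M. Every level below is rescaled FPKM, and every fold change is on the log2(rescaled FPKM + 0.1) scale, which understates the change of genes with low values. In tissue of mixed cells, fewer cells of a type and less RNA per cell cannot be told apart.

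All 7 paired members passed the filter, a mean FPKM of 0.1 or more, and all 7 had a higher mean in Lidia. ITIH2, with a Wagyu mean of 0.0697 FPKM, passed it only through the Lidia animals. Between the breeds, 3 of the 7 paired members (DCN, FBLN1 and SCARA5) were called by limma at an adjusted p of at most 0.05, against 3.33% of the 16577 genes tested that were called higher in Lidia and 4.99% that were called in either direction. The median log2 fold change was 1.204 over the 7 paired members and -0.01 over all genes tested. This contrast had selected the members, so these values are a description and nothing is read from them. The count was 0 of 7 on the FPKM as deposited, where limma called 0 genes in all and 1022 had an unadjusted p under 0.05. It was 0 of 7 without Wagyu 5 and La Quinta 4, against 0.789% of all genes called higher in Lidia, and 6 of 7 without Montealto 2, against 3.75%. No member separated the breeds completely, against 0.386% of genes whose Lidia values all lay above all Wagyu values.

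**Figure D1:**
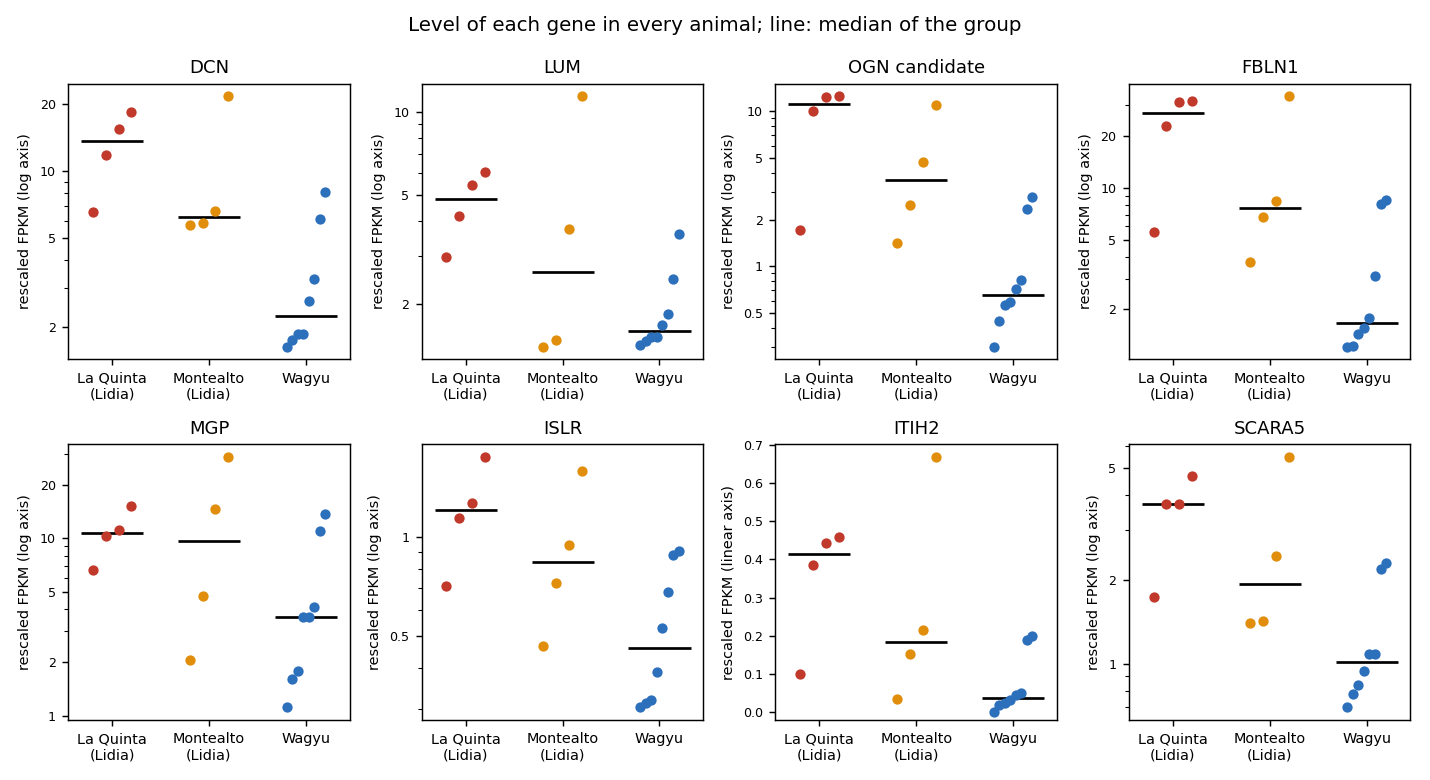
Rescaled FPKM of the 7 paired members and of the OGN candidate (vertical axis, logarithmic except for ITIH2) in every animal of La Quinta (n = 4), Montealto (n = 4) and Wagyu (n = 8); each point is 1 animal and each line the median of its group. Montealto 1 was the highest of the 4 Montealto bulls in all 8 panels, and Wagyu 3 and 4 were the highest Wagyu animals in all panels but that of ISLR.

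DCN encodes decorin, a proteoglycan with a single glycosaminoglycan chain that binds collagen and transforming growth factor beta. The gene (ENSBTAG00000003505) lies on the minus strand of chromosome 5, from 21014376 to 21053400 on ARS-UCD 1.2, with 1 annotated transcript of 8 exons. The level of DCN was 6.57 FPKM in La Quinta 1, 11.8 in La Quinta 2, 18.4 in La Quinta 3 and 15.5 in La Quinta 4. It was 21.8 FPKM in Montealto 1, 5.85 in Montealto 2, 5.74 in Montealto 3 and 6.63 in Montealto 4. The 8 Wagyu animals ranged from 1.63 to 8.05 FPKM with a median of 2.23. Thus 4 Lidia animals lay above every Wagyu animal and 6 Wagyu animals lay below every Lidia animal, while Wagyu 3 (8.05) and Wagyu 4 (6.12) overlapped with the lower Lidia animals. The mean was 11.5 ± 6.35 FPKM in Lidia and 3.39 ± 2.40 in Wagyu (SD, n = 8 each), a log2 fold change of 1.79 (SE 0.38). DCN was among the called genes under each omission of a single animal.

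LUM encodes lumican, the keratan sulphate proteoglycan first described in the cornea. It is the neighbour of DCN (ENSBTAG00000001745, minus strand, chromosome 5, 20971289 to 20978528, 1 transcript of 3 exons), with 35847 bases and 0 annotated genes of the files between them. LUM was at 2.97 FPKM in La Quinta 1, 4.18 in La Quinta 2, 6.07 in La Quinta 3 and 5.44 in La Quinta 4. It was at 11.4 FPKM in Montealto 1, 1.41 in Montealto 2, 3.74 in Montealto 3 and 1.49 in Montealto 4. Wagyu values ran from 1.43 to 3.59 FPKM with a median of 1.60. The Lidia group held both the highest animal and the lowest, since Montealto 2 lay below all 8 Wagyu bulls. The mean was 4.59 ± 3.22 FPKM in Lidia and 1.94 ± 0.7502 in Wagyu (SD, n = 8 each), with a log2 fold change of 0.98 (SE 0.35). LUM was not called, although it was called without Montealto 2 and with La Quinta alone. On the other side of LUM from DCN, the nearest gene of the files, ENSBTAG00000014340 at a distance of 34461 bases, had a mean of 0.0310 FPKM in Lidia and 0.0131 in Wagyu, so the levels of DCN and LUM did not extend to it.

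The entry of OGN runs from 83951574 to 84246783 on chromosome 8, a span of 295210 bases. None of the 8 genes inside it has both ends of the entry, so no level of OGN can be given by the rule. In the RefSeq annotation of ARS-UCD2.0 the order of genes in this neighbourhood is CENPP, OGN, OMD, ASPN and ECM2, and the first of the longer inner minus-strand genes of the files is ENSBTAG00000011824 (84019514 to 84035380, 1 transcript of 7 exons). It is called the OGN candidate here. The match rests on gene order alone, was made after values had been seen, and the gene is left out of every count of members.

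The OGN candidate was at 1.71 FPKM in La Quinta 1, 9.97 in La Quinta 2, 12.4 in La Quinta 3 and 12.5 in La Quinta 4. There were 11.03 FPKM in Montealto 1, 1.41 in Montealto 2, 2.48 in Montealto 3 and 4.68 in Montealto 4. Wagyu bulls ranged from 0.304 to 2.82 FPKM with a median of 0.653. With means of 7.02 ± 4.92 and 1.07 ± 0.948 FPKM (SD, n = 8 each), its log2 fold change of 2.51 (SE 0.54) exceeded that of each paired member. Its neighbours in the locus did not share one level or direction. The next inner gene, ENSBTAG00000011836, had means of 0.116 FPKM in Lidia and 0.0279 in Wagyu, and ENSBTAG00000011847 had 0.391 and 0.382. ENSBTAG00000024081 had 3.94 ± 2.13 FPKM in Lidia and 2.06 ± 0.994 in Wagyu (SD, n = 8 each). The 2 long genes at the ends of the entry were lower in Lidia, ENSBTAG00000011814 with a log2 fold change of -0.29 (SE 0.15) and ENSBTAG00000011859 with -0.31 (SE 0.08).

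FBLN1 (ENSBTAG00000012088, plus strand, chromosome 5, 115888383 to 115968965) had the highest Lidia mean of the paired members. The level was 5.57 FPKM in La Quinta 1, 22.8 in La Quinta 2, 31.2 in La Quinta 3 and 31.4 in La Quinta 4. In the other farm it was 33.7 FPKM in Montealto 1, 3.76 in Montealto 2, 6.82 in Montealto 3 and 8.37 in Montealto 4. The Wagyu animals had 1.22 to 8.46 FPKM with a median of 1.67. No Lidia animal fell between 8.37 and 22.8 FPKM, and the 4 below this gap reached no higher than Wagyu 4. The mean was 17.96 ± 13.1 FPKM in Lidia and 3.35 ± 3.08 in Wagyu (SD, n = 8 each), a log2 fold change of 2.38 (SE 0.55), the highest of the paired members. FBLN1 was no longer called without Montealto 1, without La Quinta 3, without Wagyu 6 or without Wagyu 12, with a log2 fold change of 2.18 to 2.63 over all single omissions.

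MGP (ENSBTAG00000012370, plus strand, chromosome 5, 95024682 to 95028653) had the widest ratio of highest to lowest Lidia level apart from ITIH2. It was at 6.61 FPKM in La Quinta 1, 11.1 in La Quinta 2, 15.3 in La Quinta 3 and 10.3 in La Quinta 4. The level was 28.8 FPKM in Montealto 1, 14.6 in Montealto 2, 2.07 in Montealto 3 and 4.74 in Montealto 4. In Wagyu the level ran from 1.11 to 13.7 FPKM with a median of 3.62. For MGP 3 Lidia animals lay above every Wagyu animal, the fewest of any paired member, and 2 Wagyu animals lay above the Lidia median of 10.7 FPKM. The mean was 11.7 ± 8.31 FPKM in Lidia and 5.08 ± 4.69 in Wagyu (SD, n = 8 each), with a log2 fold change of 1.32 (SE 0.55), and MGP was not called. Montealto 2, with the lowest value of the Lidia group for LUM, FBLN1, ISLR, ITIH2 and SCARA5, had the third highest level of MGP among the 16 animals.

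ISLR (ENSBTAG00000006024, minus strand, chromosome 21, 34509672 to 34512801, 1 transcript of 2 exons) was low in all animals. It was at 0.712 FPKM in La Quinta 1, 1.14 in La Quinta 2, 1.75 in La Quinta 3 and 1.27 in La Quinta 4. The level was 1.59 FPKM in Montealto 1, 0.467 in Montealto 2, 0.726 in Montealto 3 and 0.948 in Montealto 4. Wagyu animals ranged from 0.304 to 0.907 FPKM with a median of 0.459. The highest Wagyu animal was Wagyu 1, which lay below the Wagyu median for each of the other paired members. The mean was 1.08 ± 0.447 FPKM in Lidia and 0.541 ± 0.253 in Wagyu (SD, n = 8 each), and the log2 fold change of 0.87 (SE 0.27) was not called, although it was called without Montealto 2 (1.01).

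ITIH2 (ENSBTAG00000014075, minus strand, chromosome 13, 16140331 to 16172586) was the lowest member, and its Wagyu levels rested on 0 to 21.8 estimated fragments. It was at 0.101 FPKM in La Quinta 1, 0.459 in La Quinta 2, 0.442 in La Quinta 3 and 0.386 in La Quinta 4. The other farm had 0.668 FPKM in Montealto 1, 0.0334 in Montealto 2, 0.153 in Montealto 3 and 0.214 in Montealto 4. In Wagyu it ran from a listed 0 in Wagyu 12 to 0.201 FPKM, with a median of 0.0379. The highest 5 Lidia animals lay above every Wagyu animal, and Montealto 2, with 1.10 estimated fragments, lay among the Wagyu animals. The log2 fold change of 1.17 (SE 0.35) was not called with all animals, and was called without Wagyu 3, without La Quinta 1 or without Montealto 2. It depended on the constant added before the logarithm, from 0.28 with 1 to 2.18 with 0.01.

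SCARA5 (ENSBTAG00000019636, plus strand, chromosome 8, 10796505 to 10929733) contains a second gene of 94 bases on the minus strand, which was listed at 0 in all animals. SCARA5 was at 1.73 FPKM in La Quinta 1, 3.73 in La Quinta 2, 4.71 in La Quinta 3 and 3.73 in La Quinta 4. The level was 5.50 FPKM in Montealto 1, 1.40 in Montealto 2, 1.42 in Montealto 3 and 2.42 in Montealto 4. Wagyu values ran from 0.698 to 2.29 FPKM with a median of 1.01. As for DCN, 6 Wagyu animals lay below every Lidia animal, and Wagyu 3 and 4 lay among the Lidia animals. The mean was 3.08 ± 1.57 FPKM in Lidia and 1.24 ± 0.633 in Wagyu (SD, n = 8 each), a log2 fold change of 1.204 (SE 0.32). The call was lost in 10 of the 16 single omissions, those of Wagyu 1, 5, 6, 7, 9 and 12, of Montealto 1 and of La Quinta 2, 3 and 4, and the log2 fold change over all omissions was 1.06 to 1.34.

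**Figure D2:**
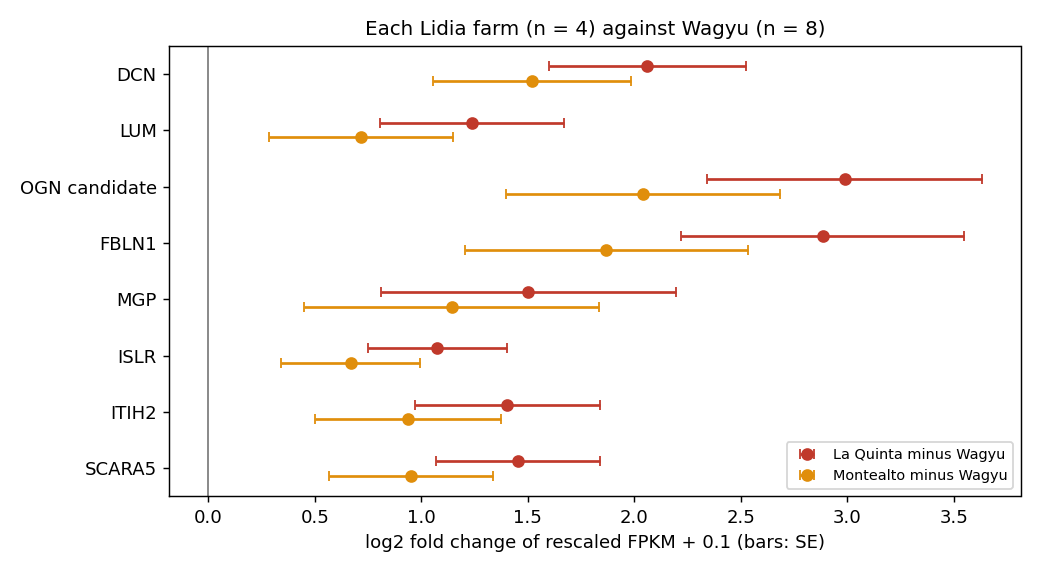
Log2 fold change of each Lidia farm (n = 4) against the same 8 Wagyu bulls (horizontal axis, log2 of rescaled FPKM + 0.1, bars SE) for the 7 paired members and the OGN candidate. The La Quinta value was the higher for every gene, from 1.08 (ISLR) to 2.99 (OGN candidate), and the bars of the farms overlapped for every gene.

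Both farms were set against the same Wagyu bulls. La Quinta bulls had higher mean log2 levels than Wagyu for all 7 paired members, with log2 fold changes of 1.08 (SE 0.33) for ISLR to 2.88 (SE 0.66) for FBLN1. DCN and FBLN1 were called, 2 of 7 members, against 0.609% of all genes tested that were called higher in La Quinta. A fit on the La Quinta and Wagyu bulls alone called 4 of 7, with LUM and SCARA5 added, against 1.03% of all genes called higher in that fit. For Montealto the log2 fold changes ran from 0.67 (SE 0.33) for ISLR to 1.87 (SE 0.66) for FBLN1, and 0 of 7 members were called, against 1.28% of all genes. The breed contrast had used all these animals, so the farm values against Wagyu are a description as well.

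The members come from the list of differences between breeds, which did not use the difference between the Lidia farms. The rule by which they were taken also names each farm, and the farm difference was tested with earlier results of these data known. Its p-values are therefore given as a description. La Quinta had the higher mean log2 level for all 7 paired members, with a median log2 fold change of 0.50 against -0.01 over all genes, but the farms did not differ beyond the spread between animals. With all 8 Lidia bulls the log2 difference ran from 0.36 (SE 0.80) for MGP to 1.02 (SE 0.77) for FBLN1. No member was called by limma, with Benjamini-Hochberg adjusted p from 0.844 (FBLN1) to 0.938 (MGP), against 0.0905% of all genes, and none had an unadjusted p under 0.05, against 5.89% of all genes. The exact two-sided permutation test of 4 against 4 bulls gave p from 0.371 (ISLR and SCARA5) to 0.686 (MGP), where the smallest p it can give is 0.0286. On the linear scale the order of the farms was not the same for all members, since MGP had a mean of 10.8 ± 3.55 FPKM in La Quinta and 12.6 ± 12.1 in Montealto (SD, n = 4 each). The Montealto means rested largely on Montealto 1. For MGP it was 28.8 FPKM beside 2.07 to 14.6 in the other bulls of that farm, and for DCN 21.8 beside 5.74 to 6.63. Single omissions moved the log2 difference by more than 1.5 times for each paired member. It ranged from 0.34 to 1.00 for DCN, 0.16 to 1.14 for LUM, 0.59 to 1.63 for FBLN1, 0.16 to 0.68 for ISLR, 0.07 to 0.92 for ITIH2 and 0.28 to 0.91 for SCARA5. It was highest without Montealto 1 for all 7 members, and lowest without Montealto 2 for LUM, FBLN1, ISLR, ITIH2 and SCARA5 and without La Quinta 3 for DCN. For MGP it ranged from -0.28, without Montealto 3, to 0.97. No member was called between the farms under any single omission.

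Within a breed the members differed between animals more than most genes did. The SD of log2 levels among the 8 Lidia bulls had a median of 0.86 over the paired members and of 0.32 over all genes tested, and among the 8 Wagyu bulls 0.60 and 0.26. From the lowest to the highest Lidia animal the level rose 3.75 times for ISLR, 3.80 times for DCN, 3.94 times for SCARA5, 8.10 times for LUM, 8.97 times for FBLN1 and 13.9 times for MGP. In Wagyu these ratios were 2.98, 4.93, 3.29, 2.52, 6.95 and 12.3. The spread was wide in both breeds.

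The same animals were high for most members. Montealto 1 had the highest level of 6 of the 7 paired members within its breed and La Quinta 3 that of the remaining one, ISLR. Montealto 1, La Quinta 2, La Quinta 3 and La Quinta 4 held the 4 highest places of all 16 animals for DCN, LUM, FBLN1, ISLR, ITIH2 and SCARA5, and 3 of these bulls came from La Quinta. Among Wagyu bulls, Wagyu 3 or Wagyu 4 was first for 6 of the 7 members, with ISLR the exception. Of the animals that stood apart in scaling, La Quinta 4 held places 2 to 4 of all 16 animals, apart from MGP (place 7). Wagyu 5 was first or second in Wagyu for 0 members. It stood next below Wagyu 3 and Wagyu 4 within Wagyu for DCN, LUM, FBLN1 and SCARA5. The part of scaling in these places was not tested.

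**Figure D3:**
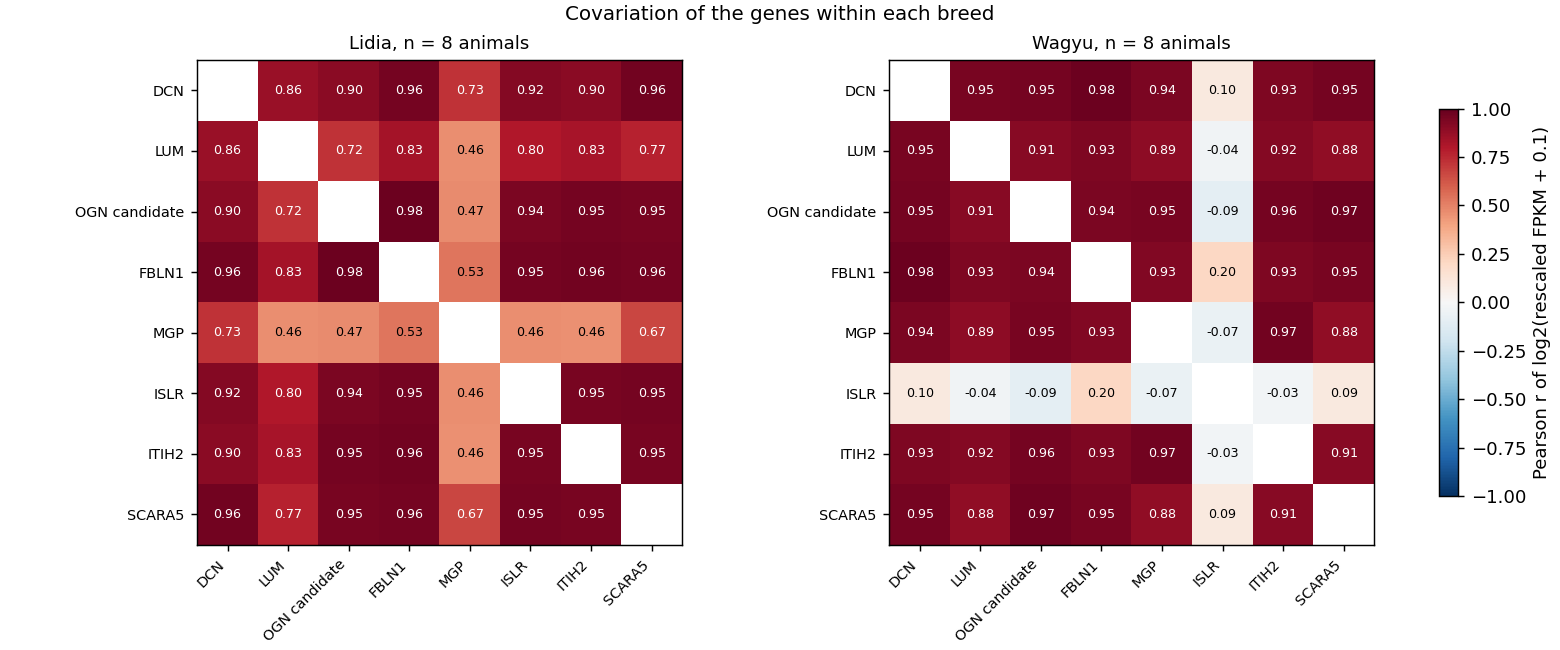
Pearson r between log2(rescaled FPKM + 0.1) of each pair of genes across the 8 Lidia animals (left) and the 8 Wagyu animals (right), on a colour scale from -1 to 1. In Lidia the row of MGP is the palest, with r of 0.46 to 0.73, and in Wagyu the row of ISLR lies near 0 while all other pairs exceed 0.88.

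Pairs of members were correlated within each breed (Pearson r on log2 levels, n = 8 animals, without p, since covariation was named in the rule by which the genes were taken). In Lidia the 21 pairs of the 7 paired members had a median r of 0.86 with a range of 0.46 to 0.96, and a median Spearman rho of 0.90. The tightest pair was DCN with SCARA5, a proteoglycan and a receptor on different chromosomes, with r = 0.96 and rho = 0.98. DCN and its neighbour LUM had r = 0.86 and rho = 0.83. Pairs with MGP, ISLR left aside, had a median r of 0.53, and the pairs among the 5 remaining members a median of 0.92. For reference, 4.27% of the pairs among all genes whose mean reached 1 FPKM had an r at or above the median of the members, around a median of -0.002187. ISLR and ITIH2 were below this mean, so the reference leaves out genes that the members' median includes. The values of FBLN1 fell into 4 high and 4 low Lidia animals, and 4 animals were too few to give r within either set. Without the 2 animals farthest from the median of the gene of a pair that comes first in the list of members, the median r over pairs was 0.84.

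In Wagyu the 21 pairs had a median r of 0.92 with a range of -0.07 to 0.98, and a median rho of 0.76. DCN and FBLN1 were the tightest pair, with r = 0.98 and rho = 0.95, and DCN and LUM had r = 0.95 and rho = 0.90. MGP stood with the rest, with a median r of 0.93 over its pairs without ISLR. For each pair, the 2 animals farthest from the median of the gene that comes first in the list of members were then left out. The median r over all pairs fell to 0.47. Over the 15 pairs without ISLR it fell from 0.93 to 0.69. Where DCN, LUM, FBLN1 or ITIH2 came first, the animals left out were Wagyu 3 and Wagyu 4. DCN with FBLN1 then kept r = 0.95 and DCN with LUM had 0.72. DCN with ITIH2 fell from 0.93 to 0.47, and ITIH2 with SCARA5 from 0.91 to 0.12. Of the pairs among genes whose mean reached 1 FPKM, which leaves out ISLR and ITIH2, 0.723% had an r at or above the members' median. Each farm held 4 bulls, too few for a correlation within a farm.

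The correlations of ISLR with the other members were high in Lidia, except with MGP, and near 0 in Wagyu. Its 6 pairs had a median r of 0.93 in Lidia (0.46 with MGP to 0.95 with SCARA5) and of 0.03 in Wagyu (-0.07 with MGP to 0.20 with FBLN1). Wagyu 1 had 0.907 FPKM of ISLR and 1.85 of DCN, whereas Wagyu 3 had 0.321 of ISLR and 8.05 of DCN. The levels of ISLR rested on 19.97 to 62.7 estimated fragments in Wagyu and on 13.3 to 137.04 in Lidia. ITIH2 rested on 0 to 21.8 estimated fragments in Wagyu. It had r of 0.91 (SCARA5) to 0.97 (MGP) there with the members other than ISLR. The part of depth in the low correlations of ISLR was not tested. The difference between the breeds in the correlations of ISLR was not tested either.

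**Figure D4:**
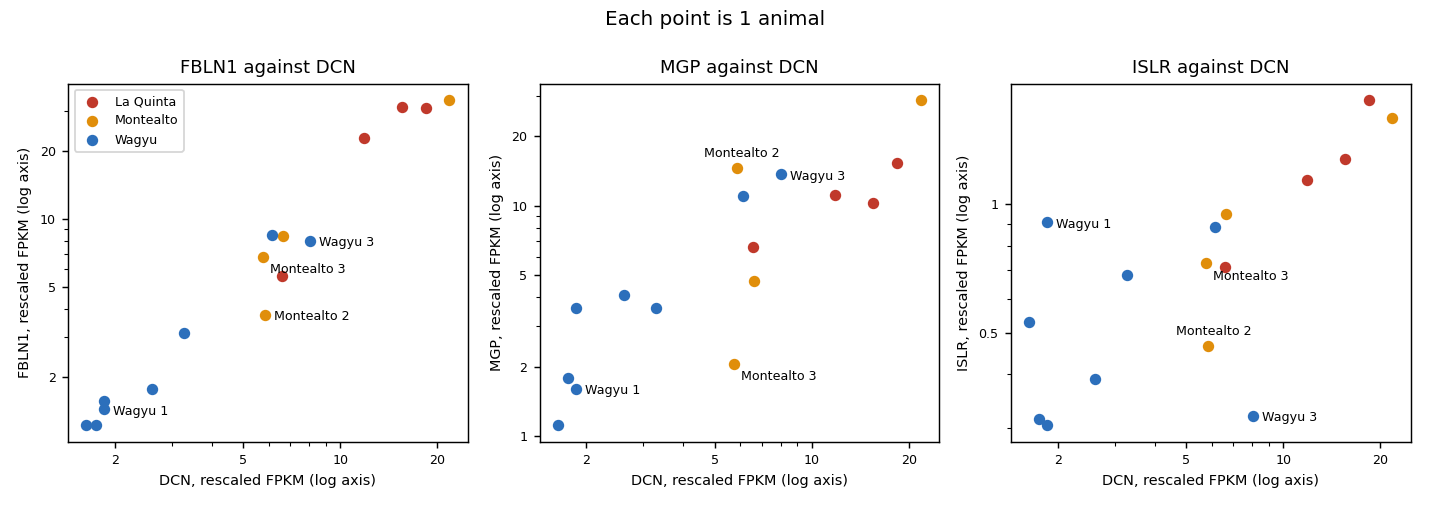
FBLN1, MGP and ISLR (vertical axes) against DCN (horizontal axis), all in rescaled FPKM on log axes, with 1 point per animal. FBLN1 followed DCN in both breeds, MGP was high for its DCN in Montealto 2 (14.6 FPKM) and low in Montealto 3 (2.07 FPKM), and ISLR did not follow DCN among the Wagyu bulls, as Wagyu 1 and Wagyu 3 show.

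Proportions between members also differed between animals. The ratio of FBLN1 to DCN, both per length in rescaled FPKM, was 0.642 to 2.03 in Lidia with a median of 1.40, and 0.678 to 1.38 in Wagyu with a median of 0.808. SCARA5 kept the steadiest proportion to DCN in Lidia, from 0.238 to 0.365 with a median of 0.254, and in Wagyu it was 0.271 to 0.574 with a median of 0.395. LUM was lower relative to DCN in Lidia, with a median ratio of 0.352 against 0.698 in Wagyu. MGP relative to DCN ran from 0.360 in Montealto 3 to 2.50 in Montealto 2. All these ratios come from the contrast that chose the genes and are descriptive.

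Transcript shares within a gene do not depend on the scaling between animals and were not used to choose the members. FBLN1 has 3 annotated transcripts of 17 exons each, and 2 of them carried nearly all of its FPKM. ENSBTAT00000016040 made up 54.0 ± 22.4% of FBLN1 in Lidia and 47.7 ± 11.9% in Wagyu, and ENSBTAT00000074839 made up 45.2 ± 21.7% and 52.3 ± 11.9% (SD, n = 8 each). Montealto 2 differed from all other animals, with 97.4% of its FBLN1 from ENSBTAT00000074839, beside 30.6 to 46.4% in the other Lidia bulls and 36.5 to 70.4% in Wagyu. Its FBLN1 rested on 147.9 estimated fragments, the lowest number in Lidia. ENSBTAT00000070725 reached 0.0674 to 0.270 FPKM in 6 of the 8 Lidia bulls and was near 0 in La Quinta 1, Montealto 3 and all 8 Wagyu bulls. Its share differed by 0.839 percentage points (SE 0.340), which limma did not call (adjusted p = 0.815 over 15314 transcripts).

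**Figure D5:**
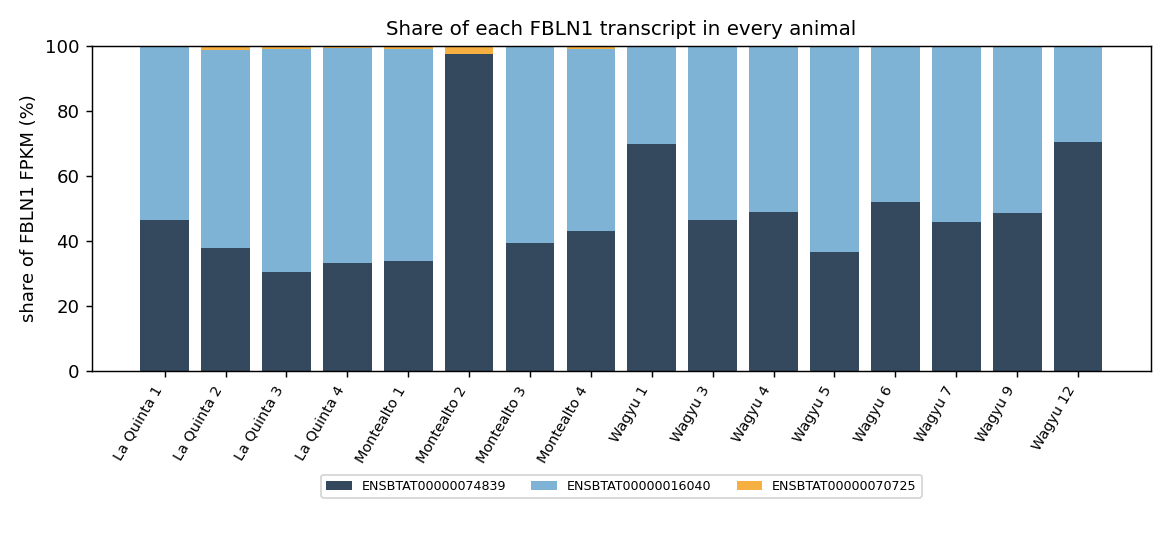
Share of each of the 3 annotated FBLN1 transcripts in the FPKM of the gene (vertical axis, percent) in each of the 16 animals, as stacked bars. Montealto 2 drew 97.4% from ENSBTAT00000074839, and the other animals drew 30.6 to 70.4% from it.

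MGP has 2 transcripts of 4 exons. The shorter, ENSBTAT00000016414, gave 80.8 ± 4.93% of MGP in Lidia and 84.5 ± 5.02% in Wagyu, a difference of -3.70 percentage points (SE 2.43) that limma did not call (adjusted p = 0.937). For SCARA5, ENSBTAT00000026158 gave 98.5 ± 2.84% and 96.3 ± 5.10%, which likewise was not called (adjusted p = 0.937). None of the transcripts of these 3 genes was called, against 0.0196% of all transcripts tested. DCN, LUM, ISLR and the OGN candidate have 1 annotated transcript each, and ITIH2 was under the minimum of 1 FPKM for this test.

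Genes of the same families were counted where the study's list gives them a name, so their direction was fixed by that choice. Of 15 small leucine-rich proteoglycans listed, 5 had a name, and DCN and BGN were called higher in Lidia. Biglycan (BGN), the closest relative of decorin, had 9.38 ± 3.00 FPKM in Lidia and 5.12 ± 1.88 in Wagyu (SD, n = 8 each). PRELP, which anchors basement membranes to collagen, had 8.54 ± 3.74 and 4.49 ± 1.88 FPKM, and the collagen-binding fibromodulin (FMOD) 2.19 ± 1.01 and 0.954 ± 0.603 FPKM, and neither was called. The median log2 fold change of the 5 was 0.98. Of 7 fibulins, 4 had a name and 3 were called. EFEMP1 (fibulin-3) had 11.4 ± 8.23 FPKM in Lidia and 2.74 ± 2.04 in Wagyu, and FBLN5, an organiser of elastic fibres, had 2.89 ± 0.711 and 1.67 ± 0.777 FPKM.

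Among class A scavenger receptors 3 of 5 had a name and 2 were called. Besides SCARA5 this was COLEC12, a collectin of vascular cells, with 3.62 ± 1.41 FPKM in Lidia and 1.56 ± 0.595 in Wagyu (SD, n = 8 each). ITIH2 was the 1 named gene of 7 inter-alpha-trypsin inhibitor chains and partners, and MGP the 1 named gene of 5 for vitamin K-dependent carboxylation. Of 8 genes for making and degrading hyaluronan, to which ITIH2 is attached, HYAL1 and CEMIP had a name and 0 were called. Of 11 fibrillar collagens, the ligands of the leucine-rich proteoglycans, 7 had a name, and COL1A1 and COL1A2 were called, with log2 fold changes of 1.86 (SE 0.37) and 1.999 (SE 0.47). Of 8 genes for TGF-beta ligands or for receptors bound or regulated by decorin, MET alone had a name and was not called. None of the named genes of these 8 lists was called lower in Lidia and none was called between the farms.

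The genes with a symbol whose levels followed each member most closely were found by Pearson r over the 16 animals after the mean of each breed was removed, among 11926 genes whose mean reached 1 FPKM. DCN was followed by AEBP1, a secreted collagen-binding protein (r = 0.97), by COL3A1, a fibrillar collagen chain (0.96), and by SFRP4, a secreted Wnt antagonist (0.96). LUM was followed by FMOD (0.90), JAM2 (0.90) and OLFML3 (0.90). Symbols exist only for genes of the published list of breed differences, and 4 ranked genes without one had a higher r to LUM than FMOD. FBLN1 was followed by EFEMP1 (0.98), COL1A2 (0.97) and SEMA3B (0.95), and SCARA5 by EFEMP1 (0.96), the ligand BMP4 (0.96) and COL3A1 (0.96). ITIH2 and the OGN candidate shared ZIC1, a transcription factor of the meninges, as their first gene (0.97 and 0.98), with COL1A2 among the 3 first of both. MGP and ISLR had other neighbours. MGP was followed by EMP3 (0.95), SRGN (0.93) and MYO1C (0.92), none of them a fibrillar collagen, and ISLR by COL8A1 (0.89), COL6A2 (0.81) and ANXA4 (0.80). The median r of all ranked genes lay between -0.045 and -0.0048 for each member.

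Markers of the cell types in the tissue were read beside the members. Of 20 markers of meningeal or perivascular fibroblasts other than the members, 14 had a name and 8 of them were called higher in Lidia, against 3.33% of all genes tested. A marker has a name only if the published list of breed differences holds it, so this count and the directions of all named markers were fixed by that choice. Their summed level was 11.4 to 97.9 FPKM in Lidia with a median of 41.8, and 5.02 to 27.7 in Wagyu with a median of 7.33. All 14 were above 0 in every animal, except SIX2, which was at 0 in some. TBX18, which was called, and SIX2, which was not, had Wagyu means of 0.0764 and 0.0449 FPKM and passed the filter only through the Lidia animals. Of these markers, CEMIP, COL1A1, COL1A2 and COL3A1 also stand in the hyaluronan or collagen lists. The sum rose and fell with the mean log2 level of the 7 members within each breed, with r = 0.96 in Lidia and 0.96 in Wagyu (n = 8 each, log2 scale). SLC13A4, a sulphate transporter of the leptomeninges, had 6.75 ± 5.72 FPKM in Lidia and 0.717 ± 1.00 in Wagyu, and ALDH1A2, the retinoic acid-making enzyme of meningeal fibroblasts, 1.91 ± 1.55 and 0.316 ± 0.459 (SD, n = 8 each). Their log2 fold changes, 3.22 and 2.34, were the highest of the 14, and the lowest was 0.51 for RANBP3L, which was not called. The part of the number of fibroblasts in the levels of the members was not tested.

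Markers of other cell types moved with the members less evenly. The 3 named of 4 endothelial markers (CLDN5, FLT1 and VWF) summed to 27.2 to 104.9 FPKM in Lidia and 14.2 to 31.4 in Wagyu, with r to the members of -0.49 and 0.88. CLDN5 made up most of this sum, with a Lidia median of 25.7 FPKM and a maximum of 97.5. In Lidia CLDN5 had r = -0.45 with DCN, FLT1 had -0.05 and VWF had 0.20. PDGFRB, the 1 named of 4 mural markers, was at 1.64 to 3.71 FPKM in Lidia and 0.619 to 2.69 in Wagyu (r = 0.94 and 0.75). The 2 named of 6 neuronal markers, SLC17A7 and GAD2, were not called, and summed to 98.4 to 149.0 FPKM in Lidia and 118.8 to 184.0 in Wagyu, with r of -0.48 and -0.57. The 2 named astrocyte markers of 4 (GFAP and AQP4, r = 0.22 and 0.55) and the 2 named microglial markers of 4 (CX3CR1 and AIF1, r = -0.25 and 0.59) were less closely tied to the members. In Lidia CX3CR1 had r = 0.45 with DCN, and AIF1 had -0.32. The astrocyte sums were 245 to 365 FPKM in Lidia and 132 to 396 in Wagyu, the microglial sums 13.1 to 25.6 and 6.28 to 14.4. AQP4, CX3CR1 and PDGFRB were called higher in Lidia, with log2 fold changes of 0.57 (SE 0.15), 1.07 (SE 0.25) and 0.94 (SE 0.22). The other named markers of these cell types were not called. TTR, the 1 named of 5 choroid plexus markers, was at 1.05 to 18.8 FPKM in Lidia and 0.154 to 9.37 in Wagyu (r = -0.33 and 0.45), and HBB, the 1 named of 3 blood markers, at 0.333 to 4.93 and 0 to 1.84 FPKM (r = 0.06 and 0.42). Of 4 oligodendrocyte markers 0 had a name.

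Measures of the libraries followed the members less than the fibroblast markers did. Mitochondrial transcripts took 22.2 to 38.4% of FPKM in Lidia and 17.8 to 39.3% in Wagyu, with r to the members of -0.44 and 0.17. The size factor had r of 0.41 and 0.11, and the number of fragments r of 0.16 and 0.07 (n = 8 each). Their part in the levels of the members was not tested.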

How the data were processed

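PFC RNA of 8 Lidia and 8 Wagyu bulls was sequenced from stranded, poly(A)-selected libraries. Per the study's methods, the authors ran PRINSEQ for trimming, STAR 2.7.3a for alignment to ARS-UCD 1.2 with its Ensembl annotation, SAMtools 0.1.18 and, for transcript abundance, Cufflinks 2.2.1. The deposited FPKM values of the 43984 transcripts come from this step, before the merging and the Cuffdiff test, and the deposited coverage gives the depth. Gene names exist here only for 1163 of 1197 entries of the study's list that had identical positions. Farms came from the study's sample list, by animal number.

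FPKM was summed per gene, rescaled by median of ratios, and compared as log2(FPKM + 0.1) by limma 3.58.1 under R 4.3.3 (eBayes with trend, two-sided, Benjamini-Hochberg, genes with a mean FPKM of 0.1 or more). Calls needed an adjusted p of 0.05 or less and a log2 fold change of 0.1 or more in size. Breed was compared in 2 groups, the farms in a fit of 3 groups. Transcript shares were tested without the trend in genes of at least 2 transcripts and a mean of at least 1 FPKM. Scripts were tested on simulated data. Fragments per gene were estimated from coverage and transcript length with 200 bases per fragment, and no read counts were used. Python 3.11.15, numpy 2.4.6, scipy 1.17.1 and pandas 2.3.3 served for the rest. The genes named are the members, the listed family and marker genes with a paired name, and the 3 closest named genes per member. Members, lists and tests were chosen with earlier results of these data known. Library replicates are separate animals. Alternatives were other scalings, constants, filters, weights and thresholds, single farms and omitted animals. Protein and promoter sequences were not used here.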

Additional observations from a re-analysis of the deposited data

Results flagged for a closer look

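Montealto 1 stood far from the rest of its group for DCN and FBLN1 among the 4 Montealto bulls and for LUM among the 8 Lidia bulls. Its DCN level of 21.8 FPKM lay apart from the 3 others by 0.944 of the range (Dixon's critical value 0.829), its FBLN1 level of 33.7 FPKM by 0.846 of the range (critical value 0.829), and its LUM level of 11.4 FPKM by 0.533 of the range (critical value 0.526). The check was made on rescaled FPKM without a logarithm, and log2 levels were not checked. Groups of this kind were checked 32 times, and chance alone marks about 1 in 20 independent groups of normally distributed values. These groups were not independent, since the members are correlated and the Montealto bulls are also part of the Lidia group. Montealto 1 was not among the animals that stood apart in scaling, with a size factor of 1.08 and 34.7 M fragments. Within La Quinta and within Wagyu no animal passed this limit for any of the 7 paired members or the OGN candidate.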

How the results depend on the processing

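The 7 paired members stayed higher in Lidia under each alternative run, except that ISLR and ITIH2 were below a mean of 1 FPKM and could not be fitted there. Genes called between the breeds (827) were 0 on FPKM as deposited, where 1022 had an unadjusted p under 0.05, 3088 with array weights, 207 without Wagyu 5 and La Quinta 4, 105 at an adjusted p of at most 0.01, 284 with La Quinta alone, 51 with Montealto alone, and 363 to 1424 with single animals left out. Paired members called were 0 on deposited FPKM, without those 2 animals, at 0.01 and with Montealto alone, 6 with array weights, and 1 to 6 (3 with all animals) with single animals left out, 6 without Montealto 2. Genes called between the farms (15) were 6 on deposited FPKM, 8 with a mean of at least 1 FPKM, 54 with array weights, 8 without the 2 animals, 7 at 0.01, 7 on Lidia bulls alone, and 6 to 14 with single animals left out. Transcript shares called (3) were 0 with a gene mean of at least 0.1 FPKM, 34 as log2 ratios and 0 without the 2 animals. The cause of these shifts was not tested. The farm difference of MGP was -0.28 to 0.97 with single animals left out and turned to -0.28 without Montealto 3. The median r over member pairs was 0.86 to 0.92 in Lidia and 0.88 to 0.93 in Wagyu on deposited FPKM and without the 2 animals. Without the 2 animals farthest from the median of the first gene of each pair, it was 0.84 in Lidia and 0.47 in Wagyu. No paired analysis was possible because Lidia and Wagyu bulls share no replicate numbers. ITIH2 and ISLR had low levels, and the part of depth in them was not tested.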
